A study of Mus musculus with 18 samples.

Results

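H3K27ac peaks were compared between KO2 and KO1, a pair of Mettl3 knockout lines of mouse embryonic stem cells, with 2 replicate libraries of each line. These are 4 of the 18 samples of the series and 4 of its 12 samples with a peak list. The other lists are the H3K27ac lists of a Mettl3 Control line and the H3K4me3 lists of all 3 genotypes, and 6 input samples were not analysed here. Per the labels, both lines have a C57BL/6 background, and both grew in serum with LIF and with CHIR99021 and PD0325901, inhibitors of GSK3 and MEK. The sources used here do not give the part of Mettl3 that was deleted, or whether each line is a single clone. The labels do not tie the replicates to separate cultures. All p-values below therefore reflect only how these libraries vary, and that variation may be technical. Chromatin came from whole cultures, so fewer cells with a mark and less mark per cell cannot be told apart.

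H3K27ac is acetylation of histone H3 on a lysine of its tail. It is placed by the acetyltransferases p300 and CBP, read by bromodomain proteins, and found on active promoters and enhancers. METTL3 carries the catalytic activity of the complex that deposits N6-methyladenosine (m6A) on RNA. In embryonic stem cells with LIF and both inhibitors, enhancers of the naive pluripotency network (Pou5f1, Sox2, Nanog, Klf4 and others) carry the mark.

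The KO2 lists were longer as deposited, with 65398 and 61383 peaks against 40210 and 39048 in KO1. Every list was therefore cut to the 39048 peaks with the strongest −log10 p within that list, the number in the shortest one. The cut kept 97.1% and 100% of the KO1 lists and 59.7% and 63.6% of the KO2 lists. A second cut, used beside it, gave every list the same covered length, 17.47 Mb. The lists hold no read totals, and the depth of each library is unknown.

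At promoters the comparison was made over windows reaching 2 kb to either side of a gene's start, and coverage is the percent of that window under peaks. The sequences below show the kinds of promoter at both ends of the comparison, from RefSeq (GRCm38.p6), each running from 250 bases before to 50 bases after the start, 5′ to 3′. CpG dinucleotides are in capitals, because the few promoters with less coverage in KO2 held fewer of them at the median. The first 3 had more H3K27ac in KO2, and the last 3 had less.
Klf4 (chr4:55532426-55532725, minus strand): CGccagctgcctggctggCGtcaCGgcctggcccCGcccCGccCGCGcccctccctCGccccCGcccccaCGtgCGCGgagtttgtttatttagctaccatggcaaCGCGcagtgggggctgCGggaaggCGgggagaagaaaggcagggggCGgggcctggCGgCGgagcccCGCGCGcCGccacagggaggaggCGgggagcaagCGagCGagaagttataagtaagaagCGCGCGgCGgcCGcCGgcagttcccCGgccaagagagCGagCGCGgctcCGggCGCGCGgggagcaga
Bcam (chr7:19770483-19770782, minus strand): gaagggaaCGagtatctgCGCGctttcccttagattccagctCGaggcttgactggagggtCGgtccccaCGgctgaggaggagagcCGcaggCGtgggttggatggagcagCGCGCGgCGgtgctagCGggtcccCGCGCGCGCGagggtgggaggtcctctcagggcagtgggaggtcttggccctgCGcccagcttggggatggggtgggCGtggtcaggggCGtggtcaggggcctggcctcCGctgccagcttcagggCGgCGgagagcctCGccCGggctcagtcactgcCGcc
Ppp2r5c (chr12:110485547-110485846, plus strand): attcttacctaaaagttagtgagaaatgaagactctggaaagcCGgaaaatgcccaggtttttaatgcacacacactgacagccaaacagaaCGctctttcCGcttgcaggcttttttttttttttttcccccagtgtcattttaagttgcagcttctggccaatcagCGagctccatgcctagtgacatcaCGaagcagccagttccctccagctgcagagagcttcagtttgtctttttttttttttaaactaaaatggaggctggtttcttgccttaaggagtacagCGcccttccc
Lrrn2 (chr1:132880105-132880404, plus strand): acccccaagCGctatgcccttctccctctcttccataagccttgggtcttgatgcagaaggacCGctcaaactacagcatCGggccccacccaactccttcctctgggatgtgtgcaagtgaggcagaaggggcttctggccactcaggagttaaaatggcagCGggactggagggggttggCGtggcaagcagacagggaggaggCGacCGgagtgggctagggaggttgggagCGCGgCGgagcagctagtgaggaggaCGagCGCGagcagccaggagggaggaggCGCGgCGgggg
Elavl4 (chr4:110351862-110352161, minus strand): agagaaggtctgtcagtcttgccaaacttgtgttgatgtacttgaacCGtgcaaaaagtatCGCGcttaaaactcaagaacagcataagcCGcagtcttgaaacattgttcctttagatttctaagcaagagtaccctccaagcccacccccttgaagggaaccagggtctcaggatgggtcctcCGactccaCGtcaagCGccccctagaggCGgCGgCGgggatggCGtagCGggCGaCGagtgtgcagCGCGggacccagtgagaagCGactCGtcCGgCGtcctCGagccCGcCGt
Vmn2r12 (chr5:109097815-109098114, minus strand): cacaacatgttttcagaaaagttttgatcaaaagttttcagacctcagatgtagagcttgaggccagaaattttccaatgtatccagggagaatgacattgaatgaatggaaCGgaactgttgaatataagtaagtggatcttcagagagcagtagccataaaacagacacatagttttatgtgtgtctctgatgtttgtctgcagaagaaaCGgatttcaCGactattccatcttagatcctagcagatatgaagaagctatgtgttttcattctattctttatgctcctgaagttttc

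The printed stretches of Klf4 and Bcam hold 40 and 27 CpGs, and that of Ppp2r5c holds 6. Those of Lrrn2, Elavl4 and Vmn2r12 hold 16, 23 and 3. Over the 7670 tested promoters with an annotated start in RefSeq, the median was 23 CpGs. It was also 23 in the 4319 such promoters called higher in KO2, and 16 in the 9 called lower. A GC box (GGGCGG, either strand) was found in 68.9% of all 7670 promoters, in 70.4% of those called higher and in 33.3% of the 9 called lower. The ETS core CCGGAA, which can share end letters with a GC box, was found on either strand in 33.2% of all, 33.5% of those called higher and 11.1% of those called lower. With 9 promoters in the last group, these shares are a description of those promoters only.

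Equal peak numbers did not give equal lengths. At 39048 peaks a list, peaks covered 19.3 and 17.5 Mb in KO1 and 29.8 and 29.4 Mb in KO2. Both KO2 libraries lay above both KO1 libraries. The means were 18.4 ± 1.29 Mb and 29.6 ± 0.309 Mb (SD, n = 2), a ratio of 1.61, against 1.96 with all deposited peaks. An exact permutation test (2-sided) gave p = 0.333, the smallest that 2 libraries against 2 allow.

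The peaks of KO2 were wider: their median width was 557 and 552 bp, against 354 and 320 bp in KO1. Most of the extra length lay where both lines had peaks. Of the difference in length, 62.8% lay in the 19069 regions held by all 4 libraries, of which 90.4% had more length in KO2, with medians of 563.5 bp in KO1 and 876.5 bp in KO2. Regions held by both KO2 libraries and no KO1 library made up 18.9% of it. At equal covered length the KO2 lists held 14543 and 14963 peaks and the KO1 lists 31977 and 39041, so that this cut keeps fewer and wider KO2 peaks.

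**Figure D1:**
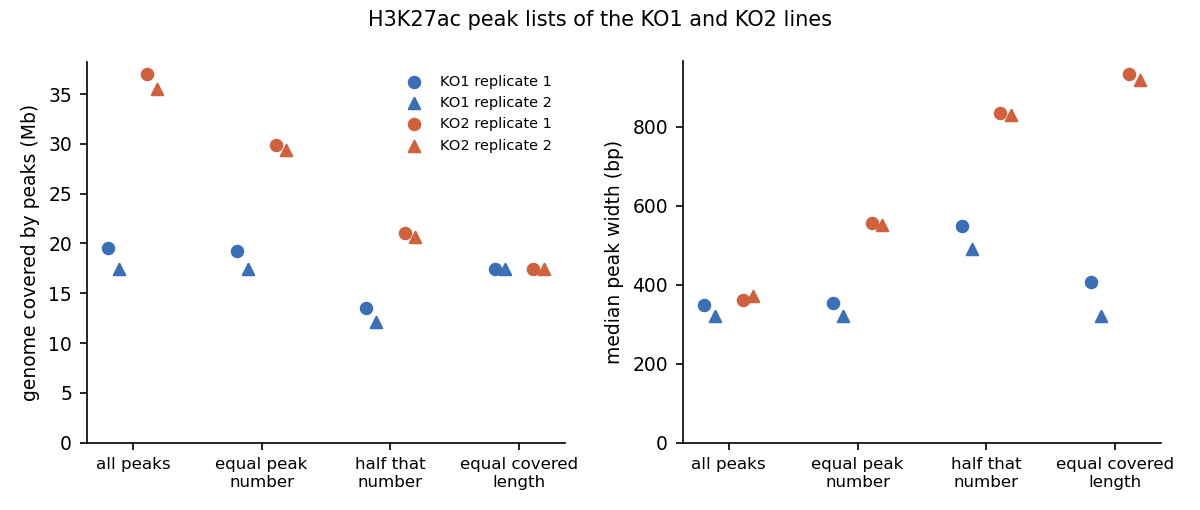
Genome covered by H3K27ac peaks in Mb (left) and median peak width in bp (right) in each of the 4 libraries, with all deposited peaks, at 39048 and at 19524 peaks a list, and at equal covered length. Each point is 1 library. At 39048 peaks the KO2 libraries lie at 29.4 and 29.8 Mb and the KO1 libraries at 17.5 and 19.3 Mb.

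The strongest KO2 peaks lay at promoters more often than the strongest KO1 peaks. Among the 5000 strongest peaks of a list, 60.7% and 61.0% overlapped a promoter window in KO1, against 70.3% and 71.4% in KO2. Among the 39048 strongest, the shares were 35.4% and 35.7% in KO1 and 40.0% and 40.8% in KO2. With each peak placed by its midpoint, the shares at 39048 were 34.8% and 35.2% in KO1, and 39.1% and 39.9% in KO2. Intergenic peaks went the other way, with 35.2% and 34.7% in KO1 against 30.1% and 29.997% in KO2. The KO1 and KO2 libraries did not overlap in these shares of the strongest peaks. Over the whole deposited lists, which are longer in KO2, the order of the promoter shares turned, with 34.96% and 35.7% in KO1 against 30.9% and 32.5% in KO2.

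Merging the 4 equal-number lists gave 52647 regions. KO2 had 4606 regions that were in both of its libraries and in neither KO1 library, and KO1 had 1738 of the reverse kind. Another 27234 regions were held unevenly within a line. Which line had more regions of its own depended on the cut: at equal covered length the counts were 177 for KO2 and 7163 for KO1. The kinds of place differed as well. Of the KO2-only regions 37.4% lay at promoters and 27.9% between genes. Of the KO1-only regions 4.55% lay at promoters and 58.5% between genes. Of the regions held by all 4 libraries 50.3% lay at promoters.

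H3K4me3, the mark of active and poised promoters, was read in other libraries of the same lines and divided these regions in the same direction. Of the KO2-only H3K27ac regions, 80.9% had an H3K4me3 peak in both KO2 libraries and 55.2% in both KO1 libraries. Of the KO1-only regions, 17.0% had one in both KO2 libraries and 44.0% in both KO1 libraries. The H3K4me3 lists were used whole here, and no test was made of these shares. An H3K27ac peak in at least 1 Control library was present at 18.5% of the KO2-only regions, 49.4% of the KO1-only regions and 90.4% of the regions held by all 4.

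**Figure D2:**
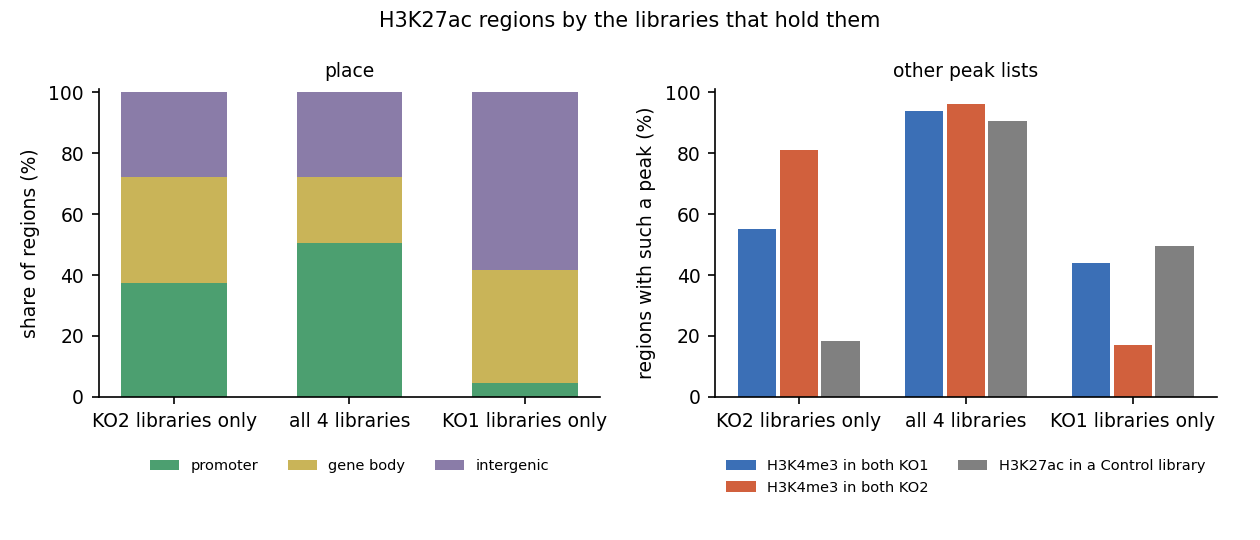
Left, share of H3K27ac regions (%) at promoters, in gene bodies and between genes, for regions held by both KO2 libraries and no KO1 library (4606), by all 4 libraries (19069), and by both KO1 libraries and no KO2 library (1738). Right, share of the same regions (%) with an H3K4me3 peak in both KO1 or both KO2 libraries, or with an H3K27ac peak in a Control library; the promoter share is 37.4% for KO2-only and 4.55% for KO1-only regions.

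Stricter classes, chosen after these counts were seen, kept regions that hold under more than 1 cut. Among the KO2-only regions, 127 were also held by both KO2 libraries at equal covered length and had no peak in the full KO1 lists, and 83 of them were at promoters. The widest was a region of 2920 bp at Bcam, a laminin-binding adhesion protein of the cell surface (mm10 chr7:19769535-19772454). Among the KO1-only regions, 563 had no peak in the full KO2 lists either, of which 341 were between genes and 21 at promoters. These KO1 regions were not asked to hold at equal covered length, so 127 and 563 cannot be compared as numbers. Absence from the other line's full lists alone held for 4501 of the 4606 KO2-only regions. The full KO1 lists are hardly longer than the cut ones, so that condition is weak for KO2. The widest of the 563 KO1-only regions, 1100 bp, lay inside Erc2, a scaffold protein of the presynaptic active zone (chr14:27666899-27667998). Of the 127 and the 563, 35.4% and 40.1% had an H3K27ac peak in a Control library.

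Regions were also counted by the gene they lay in or nearest to. These counts were not set against gene length or against all regions at a gene. They are therefore a description, and do not show that regions gathered at particular genes. Among KO2-only regions the highest count was 11, at the uncharacterised Gm38457. Tcf7l1, a repressor in the Wnt pathway, had 10, as had Macf1 and Grik3. Among KO1-only regions the highest counts were 7 each at Ttc29 and Zfp808. Kdm5c, an X-linked demethylase of H3K4, had 5.

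Coverage was tested with limma at the 9619 promoters with a mean of at least 5%. At a Benjamini-Hochberg adjusted p under 0.05, 5327 promoters (55.4%) were higher in KO2 and 14 (0.146%) were lower. The median difference was 12.52 percentage points in favour of KO2, so the calls include the general excess. The calls rest on all 4 libraries together. Without any 1 library no promoter passed in limma, with smallest adjusted p between 0.0581 and 0.0765, while 4195 to 4704 were higher and 11 to 33 lower at an unadjusted p under 0.05. The same held after quantile normalization, with 0 calls in either direction, a smallest adjusted p of 0.0694, and 1041 higher and 1068 lower at an unadjusted p under 0.05.

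To look past the general excess, each library's own median over the tested promoters was subtracted. This centring was added after the results above were seen. In limma, 139 promoters (1.45%) were then higher in KO2 and 28 (0.291%) were lower. At equal covered length, 7918 promoters were tested, with 288 higher (3.64%) and 59 lower (0.745%). The share of calls that were higher was 99.7% at equal peak number, 83.2% after centring and 83.0% at equal covered length. At an unadjusted p under 0.05, centring left 1261 promoters higher and 1505 lower, the opposite balance from the calls, and centring itself sets this balance. At equal covered length the unadjusted counts were 2738 higher and 343 lower. The median difference without centring was 16.4 points at the 2129 promoters with KO1 coverage between 25% and 50%, 17.3 points between 50% and 75%, and 12.1 points above that. Coverage cannot exceed the whole window, so the last of these values is limited by the room left. Promoters with a mean under 5% in KO1 reached the filter of 5% only with more coverage in KO2, and the reverse held for those under 5% in KO2. Their direction was set by the filter, so their differences as a group are not read here. Among promoters named below, Bcam, Bicra, Mettl14, Fst, Lama1, Vim and Gsc are of the first kind. Gm1966, Elavl4 and Eif2s3y are of the second. Their values are a description, and their p-values do not support a direction. The counts over gene lists also include such promoters.

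**Figure D3:**
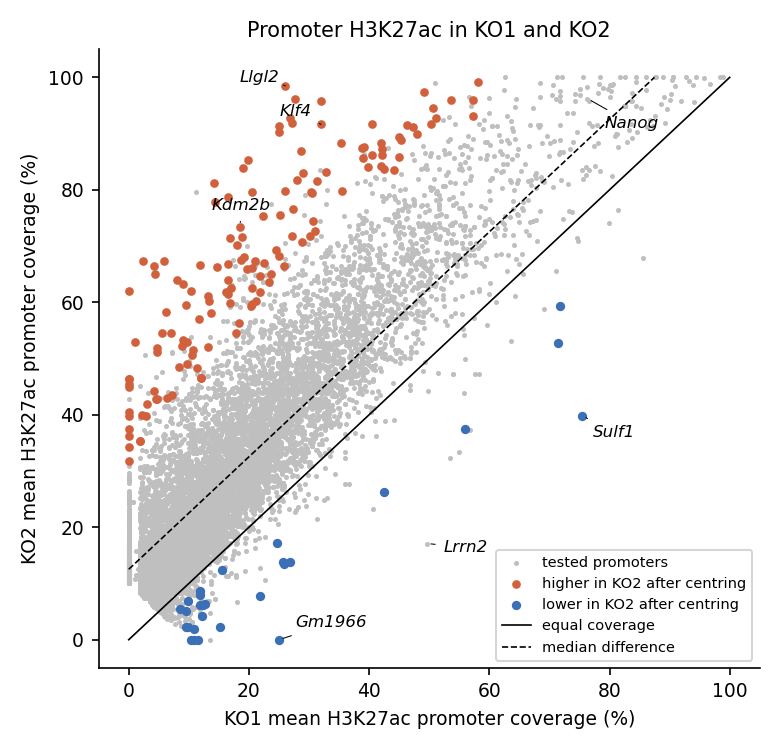
Mean H3K27ac coverage of promoter windows (%) in KO1 (x) and KO2 (y) at equal peak number, 1 point per tested promoter (9619). Colours mark the 139 promoters higher and the 28 lower in KO2 after centring, the solid line is equal coverage and the dashed line the median difference of 12.52 points.

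Named below are the promoters with the greatest differences among those called whose KO2 and KO1 values also did not overlap at equal covered length. Llgl2, a regulator of epithelial cell polarity, led the promoters higher in KO2, with 22.97% and 29.2% coverage in KO1 and 100% and 97.0% in KO2. The window was covered in small part in both KO1 libraries and almost wholly in both KO2 libraries. The difference was 72.4 ± 4.23 points (SE; limma adjusted p = 0.00905), and its centred adjusted p was 0.0281. In the lists cut to 29973 peaks, the length of the shorter Control list, Control had 39.6% and 35.8% at this window.

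Ppp2r5c, a regulatory subunit of protein phosphatase 2A, had 15.5% and 6.998% in KO1 and 93.8% and 65.3% in KO2. Its KO2 libraries lay far apart from each other, and both were far above KO1. The difference was 68.3 ± 9.78 points, with a limma adjusted p of 0.00919, and after centring the adjusted p was 0.0501. H3K4me3 there was also higher in KO2, at 94.4% and 93.1% against 63.9% and 67.4% (limma adjusted p = 0.0415).

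Bcam, printed above, had no H3K27ac peak in either KO1 library and 57.6% and 66.6% in KO2. The difference was 62.1 ± 4.26 points (limma adjusted p = 0.00905). H3K4me3 coverage of Bcam was 38.5% and 32.4% in KO1 and 67.6% and 70.5% in KO2 (adjusted p = 0.0449, limma), so both marks were higher in KO2. In the shorter lists Control had 11.5% and 13.4% H3K27ac there.

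St14, which encodes the membrane serine protease matriptase, had 25.7% and 38.4% in KO1 and 97.1% and 94.6% in KO2. Its H3K4me3 rose as well, from 41.4% and 51.0% to 97.4% and 91.1% (limma adjusted p = 0.0352). Bicra, a subunit of a BAF-type chromatin remodelling complex, had 4.70% and 0% in KO1 and 61.7% and 72.9% in KO2. Neither gene's lines overlapped. At Bicra H3K4me3 was 75.3% and 66.0% in KO1 and 72.9% and 76.5% in KO2, values that overlap.

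Ldhb, a subunit of lactate dehydrogenase, had 7.60% and 21.2% in KO1 and 76.1% and 79.7% in KO2. Nfyc, a subunit of the CCAAT-binding factor NF-Y, had 22.6% and 27.3% in KO1 and 96.2% and 84.3% in KO2. Rpp25, a protein subunit of RNase P and RNase MRP, had 21.3% and 18.5% in KO1 and 93.7% and 77.1% in KO2. All 3 were low in both KO1 libraries and high in both KO2 libraries. The other named promoters were Slc39a4 (a zinc importer), Gm38457, Mllt11 (whose window is shared with Cdc42se1) and Csrnp1, with differences of 65.0 to 67.0 points. After centring, 11 of the 12 named promoters kept an adjusted p under 0.05 in limma, Ppp2r5c being the exception. These promoters were picked for the greatest differences in the same libraries, and centring took only a small part away (Llgl2 went from 72.4 to 58.8 points). That count is therefore no separate support for them.

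Few promoters had less H3K27ac in KO2. Sulf1, an extracellular enzyme that trims sulfate groups from heparan sulfate, had 78.9% and 72.1% in KO1 and 49.7% and 29.97% in KO2. Both KO1 libraries lay above both KO2 libraries. The difference was -35.6 ± 7.36 points (limma adjusted p = 0.0159). In the shorter lists Control had 79.1% and 72.4%, beside 78.9% and 72.1% in KO1 and 41.4% and 19.1% in KO2.

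Lrrn2, a leucine-rich repeat protein of neurons, had 56.3% and 42.9% in KO1 and 28.1% and 6.07% in KO2, a difference of -32.5 ± 8.55 points (limma adjusted p = 0.0272). Its centred adjusted p was 0.0522. H3K4me3 at Lrrn2 was lower in KO2 too, at 46.4% and 42.0% against 88.9% and 79.4% (limma adjusted p = 0.0415), the only one of the 14 to pass in that mark. In the shorter lists Control had no H3K27ac peak at this window, and KO2 had 17.2% and 6.07%.

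Gm1966 had 31.1% and 18.8% in KO1 and no peak in either KO2 library. The difference was -25.0 ± 4.47 points (limma adjusted p = 0.0119). Elavl4, a neuronal RNA-binding protein, was likewise without a peak in KO2, with 11.3% and 9.40% in KO1 (limma adjusted p = 0.0187). Vmn2r12, a vomeronasal receptor, had 21.5% and 22.1% in KO1 and 11.8% and 3.85% in KO2.

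Fzd8, a Wnt receptor, had 26.1% and 25.5% in KO1 and 12.3% and 14.6% in KO2. The receptor phosphatase Ptprd had 62.5% and 49.6% in KO1 and 39.3% and 35.7% in KO2. At Eif2s3y, a Y-linked subunit of the translation initiation factor eIF2, the values were 11.2% and 19.2% in KO1 and 4.67% and 0% in KO2. All 3 were higher in both KO1 libraries. Rab18, Ccdc138, Ms4a10, 4930432K21Rik (whose window is shared with Cc2d1a) and Stk35 had differences between -21.1 and -12.4 points. At Stk35 the direction turned at 19524 peaks a list (1.11 points) and with windows of 1 kb to either side (3.82 points). After centring, 10 of the 12 named lower promoters kept an adjusted p under 0.05, Lrrn2 and Rab18 being the exceptions. Centring moves every lower promoter further below 0 (Sulf1 went from -35.6 to -49.3 points), so this count is no separate support either.

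**Figure D4:**
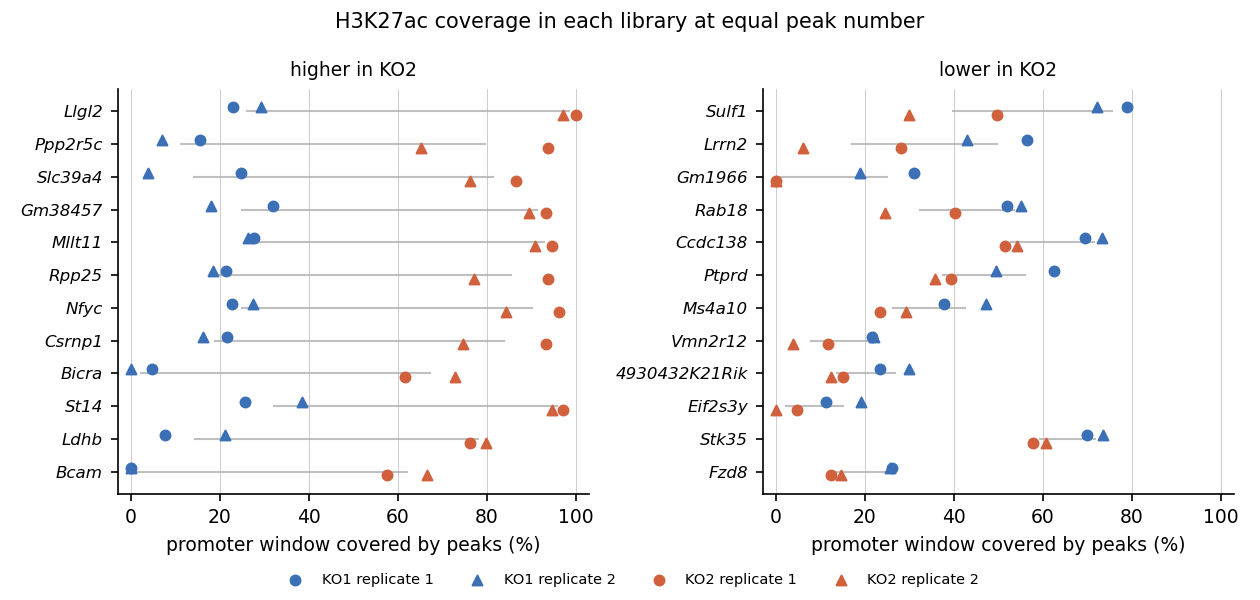
H3K27ac coverage of the promoter window (%) in each of the 4 libraries at equal peak number, for the 12 named promoters higher in KO2 (left) and the 12 lower (right). Circles are replicate 1 and triangles replicate 2 of each line, and the grey line joins the means; Llgl2 runs from 22.97% and 29.2% to 97.0% and 100%.

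Marks at the start of Mettl3, the gene that was targeted, do not check the knockout, since a deletion within the gene can spare its promoter. Coverage was 20.9% and 19.8% in KO1 and 31.9% and 28.0% in KO2, with no overlap and a difference of 9.62 ± 3.25 points (limma adjusted p = 0.0508). After centring the difference was -4.02 points. Mettl14, the partner subunit of METTL3, had 4.35% and 0% in KO1 and 25.1% and 28.8% in KO2 (adjusted p = 0.00905, limma), and H3K4me3 of 43.8% and 46.6% against 44.3% and 46.2%. Of the 28 genes for m6A writers, readers and erasers, all of them tested, 17 were higher in KO2 (60.7%, near the 55.4% of all tested promoters) and none lower, with a median difference of 14.0 points beside 12.52 for all tested promoters. After centring, the smallest limma adjusted p among the 28 was 0.0829, at Wtap. Wtap, a regulatory subunit of the writer complex, had 43.7% and 48.2% in KO1 and 73.6% and 80.2% in KO2.

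Counts over gene lists are read against the 55.4% of all tested promoters that were higher. Of the 353 tested genes on the 18 lists, none was lower in KO2 in limma, none at an unadjusted p under 0.05 either, and 8 had a difference below 0. Lower promoters were as rare over all 9619 tested, with 14 (0.146%) called and 23 at an unadjusted limma p under 0.05. Their absence from the lists is therefore near the general share, and no share over all promoters stands beside the 8.

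Naive pluripotency genes were mostly higher in KO2. Of 40 genes on the list, 38 were tested, 30 were higher in KO2 and none was lower, and the median difference was 21.2 points. After centring 5 still passed, among them Klf4, Tcl1, Tdgf1 and Tbx3. Klf4, a zinc finger factor used in reprogramming, had 29.2% and 34.8% in KO1 and 90.2% and 93.1% in KO2. That is a difference of 59.7 ± 4.15 points (limma adjusted p = 0.00905). In the shorter lists Control had 42.9% and 40.6%, nearer to KO1.

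Tcl1, a cofactor of the kinase AKT, had 7.25% and 5.17% in KO1 and 58.6% and 57.9% in KO2. Tdgf1, a coreceptor of Nodal, had 51.9% and 46.5% in KO1 and 97.8% and 97.1% in KO2. Tbx3, a T-box factor, had 61.0% and 55.3% in KO1 and 99.1% and 99.4% in KO2. Each line's replicates were close and the lines were far apart. Pou5f1, Nanog and Sox2 were broadly covered in both lines. Pou5f1 had 76.4% and 72.2% in KO1 and 96.7% and 97.5% in KO2, Nanog 70.8% and 81.8% against 97.9% and 94.6%, and Sox2 87.5% and 79.7% against 96.1% and 95.4%. All 3 passed in limma (adjusted p = 0.00919, 0.0202 and 0.0412), and none passed after centring, where the difference at Sox2 was -1.52 points. Any gain was limited to the part of the window left uncovered in KO1, which was smallest at Sox2. The centred values of these 3 genes therefore cannot show that they lacked a gain beyond the general excess. The Esrrb window at its annotated start had no peak in any of the 4 libraries and was not tested.

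Not every gene of the list was called higher. Klf2, a zinc finger factor, had 87.3% in both KO1 libraries and 90.6% and 92.0% in KO2 (adjusted p = 0.266, limma). Both KO2 values were above KO1, and a window covered this far in KO1 left little room for a gain. The missing call at Klf2 therefore cannot show that it lacked the general excess. Stat3, the transcription factor that carries the LIF signal, had 27.5% and 19.6% in KO1 and 27.1% and 15.7% in KO2, values that overlap (limma adjusted p = 0.708). At equal covered length, 28 of the 38 genes had both KO2 values above both KO1 values and 2 had the reverse, beside 51.5% and 11.1% of all tested promoters.

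**Figure D5:**
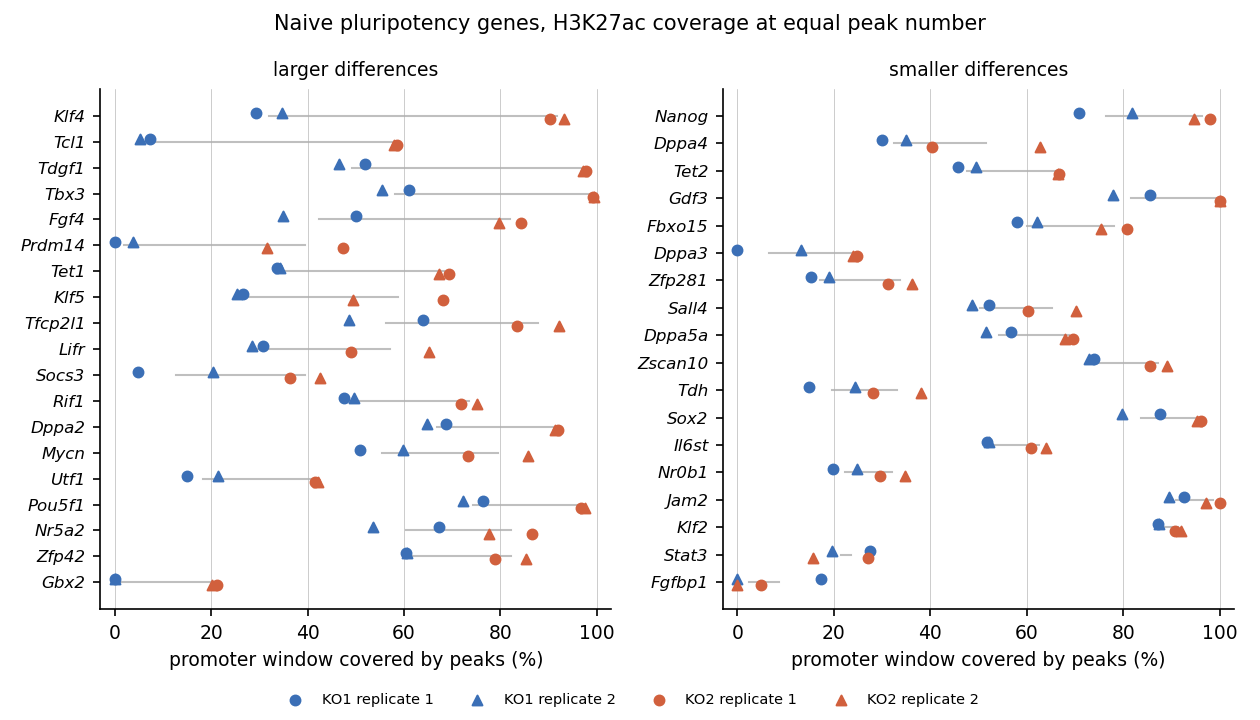
H3K27ac coverage of the promoter window (%) in each of the 4 libraries at equal peak number for 37 of the 38 tested genes of the naive pluripotency list, in order of the difference. Circles are replicate 1 and triangles replicate 2, and the grey line joins the means; Klf4 has the greatest difference (59.7 points), and at Stat3 the lines overlap.

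Genes of later states differed in how many carried peaks. Of 23 formative and primed genes, 8 to 10 had no peak in a library, against 11 or 12 of 18 neuroectoderm genes and 21 to 23 of 23 mesoderm and endoderm genes. Of the formative and primed genes 13 were tested and 7 were higher (53.8%), with a median difference of 10.6 points. Etv4, an ETS factor downstream of FGF signalling, had 27.5% and 17.3% in KO1 and 77.1% and 73.4% in KO2, and was the 1 gene of that list to pass after centring. Foxd3 had 57.9% and 53.4% in KO1 and 52.7% and 57.8% in KO2, which overlap. Of the neuroectoderm genes 7 were tested and 4 were higher, among them Tubb3, a neuronal tubulin, with 9.25% and 8.75% in KO1 and 56.4% and 50.1% in KO2. At Tubb3 the H3K4me3 coverage was also higher in KO2, at 58.1% in both libraries against 17.7% and 21.6% (limma adjusted p = 0.0347).

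Markers of other cells moved in part. Of the 21 primitive endoderm genes, 14 or 15 had no peak in each library, and their summed coverage was 80.3% to 112% in KO1 and 258% to 267% in KO2. Of 16 fibroblast genes with a window, 11 or 12 had no peak, with sums of 111% to 138% in KO1 and 223% to 241% in KO2. The markers Gata4, Gata6, Sox7, Sox17, Pdgfra, Col1a1, Col1a2, Col3a1, Thy1, Postn, Twist1, Cdx2, Elf5 and Gata3 were at 0 in all 4 libraries. Other markers of the same lists had peaks, among them Tfap2c, Dab2, Fn1 and Vim. The trophectoderm marker Tfap2c was called higher in KO2, whose libraries had 30.4% and 16.7% coverage. The KO1 libraries had 5.50% and 6.57% there. At Dab2, of the primitive endoderm list, the only peak lay in a KO1 library (3.75%). Of the 7 primitive endoderm genes tested, 5 were higher in KO2 in limma, namely Sparc, Apoe, Col4a1, Col4a2 and Fst. The basement membrane collagens Col4a1 and Col4a2, which share a window, had 6.67% and 8.20% in KO1 and 38.4% and 25.5% in KO2. Sparc, a matrix glycoprotein, had 38.5% and 25.3% in KO1 and 74.2% and 92.9% in KO2. The laminin gene Lama1 had 8.05% and 0% in KO1 and 10.6% and 13.3% in KO2, and did not pass (limma adjusted p = 0.0956), nor did Lamc1. Of the 4 fibroblast genes tested 3 were higher, Vim among them with 3.75% and 3.97% in KO1 and 37.7% and 27.97% in KO2, while Fn1 did not pass. The part of such cells in the other results was not tested. Of 9 genes of the 2-cell-like state with a window, 7 or 8 had no peak in each library, Zscan4c and Zscan4d among them.

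Of the 33 Polycomb and Trithorax genes 32 were tested and 20 were higher (62.5%), with a median of 18.9 points, and 3 passed after centring. Kdm2b, which recruits a variant Polycomb complex to CpG islands, had 12.6% and 24.5% in KO1 and 73.7% and 73.2% in KO2. Kdm6b, a demethylase of H3K27, had 17.6% and 20.7% in KO1 and 71.5% and 64.7% in KO2. Both passed after centring (limma adjusted p = 0.0355 each). Of 31 tested genes for histone acetylation 22 were higher (71.0%), with a median of 14.9 points, and 1 passed after centring. Sin3a, a scaffold of deacetylase complexes, had 22.97% and 17.97% in KO1 and 83.4% and 75.7% in KO2.

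All 75 ribosomal protein genes were tested, and 49 were higher in KO2, with a median of 18.3 points and 6 that passed after centring. Rpl13 had 41.2% and 37.1% in KO1 and 85.4% and 89.9% in KO2. Of 21 tested glycolysis genes 16 were higher (median 17.7 points), and the neuronal-type glucose transporter Slc2a3 had 32.8% and 29.1% in KO1 and 71.7% and 73.7% in KO2. Of 26 tested housekeeping genes 20 were higher, with a median of 19.9 points. Gapdh had 76.1% and 63.0% in KO1 and 94.3% and 85.0% in KO2, and Actb had 48.9% and 49.3% against 58.8% and 67.4%. Genes expressed in all cells also had the excess, and neither control gene passed after centring.

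Of 12 tested genes of the interferon and double-stranded RNA response 10 were higher, with a median of 22.4 points. After centring the smallest limma adjusted p was 0.0526, at Oas2. Oas2, which makes 2′-5′ oligoadenylate on sensing double-stranded RNA, had 14.5% and 23.4% in KO1 and 61.5% and 59.2% in KO2. Its H3K4me3 was 31.3% and 34.4% in KO1 and 67.8% and 63.3% in KO2 (adjusted p = 0.0415, limma). At equal covered length its H3K27ac values overlapped between the lines, because 1 KO2 library had 38.9% and the other 0%. Of 22 tested p53 target genes 13 were higher (median 16.1 points). Cdkn1a, a cell cycle inhibitor, had 50.3% and 41.6% in KO1 and 80.4% and 74.7% in KO2, but 44.0% and 43.7% in KO2 at equal covered length. Of 16 tested imprinted genes 10 were higher (median 15.6 points), and of 20 tested LIF, FGF and Wnt feedback genes 11 were higher (median 16.2 points). Of 5 tested trophectoderm genes 3 were higher (median 13.0 points), and Gsc was the only tested gene of the mesoderm and endoderm list.

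H3K4me3 gave a readout in libraries that the H3K27ac comparison did not use. At equal numbers of 66483 peaks, limma found 35 promoters (0.26%) higher in KO2 and 13 (0.0965%) lower among 13467, and none without any 1 library. Without 1 library, 538 to 1011 promoters were higher and 479 to 1099 were lower at an unadjusted p under 0.05. Across the promoters called higher for H3K27ac the median H3K4me3 difference was -0.17 points, close to the -0.25 points of all promoters, although 27 of the 35 higher in H3K4me3 were among them. Of the 139 higher after centring, 135 were tested for H3K4me3, and 7 of them were called higher in it. The H3K4me3 difference, called or not, was above 0 at 107 of the 135, with a median of 7.12 points. Of the 28 lower after centring, 26 were tested and 0 were called lower in H3K4me3 by limma, with 10 lower at an unadjusted p under 0.05. The difference was below 0 at 23 of the 26, with a median of -8.00 points. Over all promoters the difference was above 0 at 47.9%. These counts are a description with no test.

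Away from promoters, peaks more than 2.5 kb from the ends of genes were joined over short gaps into domains, and the length under peaks was compared as log2(bp + 500). Domains needed a mean of at least 1000 bp over the 4 libraries. Those with a mean under 1000 bp in 1 line passed only with more length in the other line. Their direction was set by the filter, and the counts of domains include them. Of 3324 domains tested with limma, 1371 (41.2%) were higher in KO2 and 91 (2.74%) lower, with a median log2 difference of 0.45. After centring, 562 (16.9%) were higher and 438 (13.2%) lower, a share of higher calls of 56.2% against 93.8% before. At equal covered length 2235 domains were tested, and 40 (1.79%) were higher and 105 (4.7%) lower. Measured in the lists of that cut, both KO2 values were above both KO1 values in 23.7% of the 3324 domains and below them in 41.5%. Unlike the promoters, distal domains still had calls without any 1 library, 503 to 1543 higher and 26 to 52 lower. Leaving out KO2 replicate 1 or KO2 replicate 2 gave 503 and 547 higher domains, and leaving out KO1 replicate 1 gave 26 lower ones.

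A domain 11.4 kb from Tbx3 (mm10 chr5:119656430-119661836) had 450 and 0 bp under peaks in KO1 and 3354 and 3246 bp in KO2. The log2 difference was 2.46 ± 0.33 (limma adjusted p = 0.0017). Tbx3 is also among the promoters that stood out after centring, in the same libraries, which is no separate support. A domain within Arhgap23, a GTPase-activating protein, had 0 and 718 bp in KO1 and 4874 and 4765 bp in KO2. One near Frs3, an adaptor of the FGF receptor, had 0 and 150 bp in KO1 and 2621 and 3551 bp in KO2. In all of these both KO2 libraries were well above both KO1 libraries. Their KO1 means were 225, 359 and 75 bp, so they reached the filter of 1000 bp only with more length in KO2. Their values are a description, and their p-values do not support a direction. Further domains higher in KO2 lay nearest to Gm52481 on chromosome Y and Gm46608 on chromosome 17.

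Among the domains lower in KO2, one within Cacna1a, a subunit of a neuronal calcium channel (chr8:84391113-84398565), had 1949 and 2224 bp in KO1 and none in KO2. One nearest to Adcyap1, a neuropeptide gene 273 kb away, had 2281 and 2469 bp in KO1 and 0 and 319 bp in KO2. One 8.30 kb from Kdm5c had 2099 and 2198 bp in KO1 and 377 and 0 bp in KO2 (log2 difference -2.00 ± 0.35, limma adjusted p = 0.00431). KO1 was higher in both libraries at each. The others were nearest to 1700016C15Rik and Yipf5 and within Hmgxb4. All of these lower domains had a mean of at most 402 bp in KO2. They reached the filter of 1000 bp only with more length in KO1. Their values are a description, and their p-values do not support a direction.

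Counts of domains near genes of a list are read against the 41.2% higher and 2.74% lower over all domains. Of 40 domains within 50 kb of naive pluripotency genes 23 were higher and none lower, with a median log2 difference of 0.51 beside 0.45 for all domains. The domain around Sox2 had 2759 and 1968 bp in KO1 and 6346 and 8447 bp in KO2 (log2 difference 1.46 ± 0.20, limma adjusted p = 0.0017). It also passed after centring (adjusted p = 0.00827), while the Sox2 promoter, whose window had little room for a gain, did not. The domain spanning Nanog had 22095 and 23761 bp in KO1 and 32398 and 36883 bp in KO2. Near Socs3, the feedback inhibitor of LIF signalling, a domain within 50 kb had 0 and 150 bp in KO1 and 1863 and 2506 bp in KO2. That domain passed the filter of 1000 bp only with more length in KO2, so its direction was set by the filter. Among the LIF, FGF and Wnt feedback genes 9 of 10 domains were higher and none lower, with a median of 0.85. Several of the 10 lay near Socs3 alone, and those are also among the 40 naive pluripotency domains. Of the 17 domains near Polycomb and Trithorax genes 5 were higher, a smaller share than over all domains, and 2 were lower. The lower ones lay near Suz12 and Eed, core subunits of Polycomb repressive complex PRC2. A second domain, nearer to the Eed promoter window, was not called. It had 3507 and 3458 bp in KO1 and 3927 and 3839 bp in KO2 (limma adjusted p = 0.444). The domain near Suz12 had 8518 and 7478 bp in KO1 and 5285 and 6038 bp in KO2 (adjusted p = 0.0270, limma). Of 15 domains near p53 target genes 8 were higher and 2 lower, with a median of 0.79. Both lower ones lay near Sesn1, one of them with 1712 and 1639 bp in KO1 and 690 and 766 bp in KO2. With both KO2 values under 1000 bp, that domain passed the filter only with more length in KO1, so its direction was set by the filter.

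The balance of the lines varied by chromosome. KO2-only regions outnumbered KO1-only regions 5.84 to 1 on chromosome 4 and 4.33 to 1 on chromosome 19, and the ratio was 0.743 on chromosome 14. The local background that the authors' fold and p imply for a peak also differed between the lines by chromosome. Relative to the other autosomes it was 0.954 in KO1 and 0.876 in KO2 on chromosome 14, 1.198 and 1.085 on chromosome 11, and 1.11 and 1.27 on chromosome 6. Across 20 chromosomes, which share the same 4 libraries, the log2 ratio of backgrounds and the log2 ratio of region counts had a Pearson r of 0.703 and a Spearman coefficient of 0.755. Without chromosomes 6 and 11, whose background ratios were farthest from the median, they were 0.834 and 0.843. Both ratios come from the same peak lists, and the p used for the backgrounds also ranked the peaks that define the regions. The coefficients are therefore a description of these lists and no independent support for a link. The part of these backgrounds in single regions and domains was not tested. Without chromosomes 4, 8, 11 and 12 the counts were 3419 KO2-only and 1417 KO1-only regions. Chromosomes 6 and 14 stayed in, so these counts are no check on the background.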

How the data were processed

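H3K27ac peaks of KO1 and KO2 (2 libraries each) were compared on mm10. Per the submitters' processing notes, reads were handled with Trimmomatic 0.38, Bowtie 1.2.2, CASAVA and MACS2 (version not given). Each library has its own list from the authors, and the deposited lists give each peak's fold enrichment (a ratio) over local background and its −log10 p and −log10 q. The sources used here do not say if inputs or spike-in chromatin entered the calling. Cuts ranked peaks by the deposited −log10 p within a list; the weakest peak kept had 5.27 and 4.19 in KO1 and 8.79 and 8.17 in KO2, so equal numbers are not equal stringency.

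Genes were 21897 of RefSeq GRCm38.p6 with windows reaching 2 kb to either side of the annotated start for 17497 genes, the place in the gene with most H3K4me3 for 3153 and with most H3K27ac for 23; 1224 had none. A window placed by a mark can lie on another gene's start. Promoters needed a mean coverage of 5% and domains 1000 bp; log2(bp + 500) understates changes of low values. Fits used limma 3.58.1 (lmFit, and eBayes with a trend; R 4.3.3), genotype only, with Benjamini-Hochberg adjustment over all features tested, and were checked on simulated data. Python 3.11.15 made the tables. Named promoters and domains were the called features with the greatest differences, 12 and 6 a direction, whose lines did not overlap in the same direction at equal covered length, and the first 3 tested genes of each list by difference; Mettl3, Mettl14, Gapdh, Actb, Pou5f1, Sox2, Nanog, Klf4 and Esrrb were always included, and others named were chosen after their values were seen. Members and gene lists were chosen with earlier results of these data known. A few items these rules select are not reported here.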

Additional observations from a re-analysis of the deposited data

How the results depend on the processing

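Promoter calls depended on the scaling. Higher in KO2 were 5327 promoters at equal peak number, 288 at equal covered length, 2778 at 19524 peaks a list, 139 after centring, and 0 after quantile normalization of either cut. Lower were 14, against 59, 27, 28 and 0 in the same order, 28 with Control in the fit, 8 with all peaks and 8 with windows of 1 kb to either side. Without each library in turn both counts were 0. Quantile normalization of the coverage at equal covered length, centring and the stricter region classes were chosen after seeing the data; the first had 670 higher and 672 lower at an unadjusted p under 0.05 and a smallest adjusted p of 0.0629 in limma. Domains higher were 1371, against 2244 with all peaks, 40 at equal covered length, 550 at 19524 peaks, 504 after quantile normalization, 562 after centring and 503 to 1543 without 1 library; domains lower were 91, against 43 with all peaks, 32 at 19524 peaks, 525 after quantile normalization, 438 after centring and 26 to 52 without 1 library. KO2-only regions were 4606, against 13108 with all peaks, 177 at equal covered length, 2186 at 19524 peaks, 2243 with peaks within 1 kb joined, 9712 where 50% of the region had to be covered, 127 in the stricter class, and 6563 to 10646 without 1 library, which asks for fewer libraries by construction; KO1-only regions were 1738, against 595, 7163, 1063, 930 with joining, 563 in the stricter class, and 2899 to 5905 without 1 library. H3K4me3 calls fell from 48 to 0 without 1 library. The ratio of covered length kept its direction under all alternatives run except equal covered length, which makes the lengths equal by construction. Directions turned at Stk35 (1.11 points at 19524 peaks, 3.82 with the smaller window), Mettl3 (-5.24 after quantile normalization, -2.26 after that of equal covered length, -4.02 after centring), Gapdh (-1.32 and -0.29 after these quantile normalizations), Actb (-8.40 and -3.94), Sox2 (-1.14 and -1.41, and -1.52 after centring), Zfp750 (-9.87 and -5.80, and -5.19), Gsc (-3.29 after centring), Cdkn1a (-2.07 at equal covered length, -18.2 after its quantile normalization), and after the latter Ccn1 (-7.22), Oas2 (-3.36) and Ifitm1 (-4.77). The cause was not tested. Replicate numbers are only shared: the differences between replicates 1 and 2 of the lines correlated at -0.0096 over promoters and -0.019 over domains. With the replicate block, 5507 promoters were higher and 19 lower, 1541 domains were higher and 120 lower, and H3K4me3 had 43 higher and 16 lower. Peak lists hold no read counts, so depth could not be used to weigh them, and a region without a peak may still carry the mark below the authors' threshold.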
